A study of Mus musculus with 31 samples.

Results

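The 6 genes described here are Gfap, Aqp4, Aldh1l1, Aldoc and Apoe, which are widely used to mark astrocytes, and Olig1, which marks cells of the oligodendrocyte lineage. They were chosen by symbol and are 6 of 17484 features listed in at least 1 of 5 tables of allele-specific RNA sequencing, 1 table for each stage. All 6 were listed in every table except Aqp4, which was not listed for embryonic stem cells (ESCs). All cells and tissues came from F1 hybrids between 2 mouse strains, C57BL/6 (B6) and JF1. JB6 hybrids had a JF1 mother and a B6 father, and BJ1 hybrids had a B6 mother and a JF1 father. In culture, hybrid ESCs grown from blastocysts were taken through a protocol meant to make cortical cells, with the Hedgehog pathway inhibitor cyclopamine in the medium from day 2 to day 10. They were sequenced as ESCs (4 libraries), at day 12 (d12, 4 libraries) and at day 21 (d21, 4 libraries), with 2 libraries per cross at each of these stages. The B6 parent of the hybrid ESCs was C57BL/6J with an Oct4-GFP transgene. The 12 libraries of the culture were all labelled male. The labels name 1 ESC line for each cross, so line and cross cannot be told apart in culture. The in vivo samples were cortex of hybrid mice before birth (E13.5, labelled DT, 6 libraries, 3 per cross) and at birth (P0, 7 libraries, 3 JB6 and 4 BJ1), and 11 of these 13 libraries were labelled female. Sex therefore went largely with the setting, in culture or in vivo.

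Astrocytes are glial cells that take up transmitters and potassium, supply neurons with lipids and metabolites, and wrap blood vessels with end-feet. In mouse cortex they and the oligodendrocyte precursors arise from radial glia and from ventral progenitors around birth, after most neurons have been made. Gfap encodes the intermediate filament of astrocytes, Aqp4 the water channel of their end-feet, Aldh1l1 a folate enzyme (10-formyltetrahydrofolate dehydrogenase), Aldoc the brain form of the glycolytic enzyme aldolase, and Apoe the apolipoprotein that carries cholesterol from astrocytes to neurons. Olig1 encodes a basic helix-loop-helix transcription factor of the oligodendrocyte lineage. Astrocytes differ by region, and Gfap is in general low in resting astrocytes of the mouse cortical grey matter, whereas Aldh1l1 and Aldoc are found in most astrocytes and also in some progenitors.

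Promoters from RefSeq (build GRCm38.p6) are shown for Gfap and Aldh1l1, because both were low at d12 and E13.5 and higher at d21 and P0. Each runs from 250 bases before to 50 bases after the annotated start, 5′ to 3′ on the gene's own strand.
Gfap, chr11:102897151-102897450, minus strand: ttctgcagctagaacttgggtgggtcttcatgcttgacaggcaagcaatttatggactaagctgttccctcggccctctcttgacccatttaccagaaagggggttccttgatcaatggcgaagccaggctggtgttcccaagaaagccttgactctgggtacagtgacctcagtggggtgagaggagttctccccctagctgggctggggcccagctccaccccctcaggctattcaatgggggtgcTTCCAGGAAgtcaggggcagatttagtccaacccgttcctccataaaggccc
Aldh1l1, chr6:90550543-90550842, plus strand: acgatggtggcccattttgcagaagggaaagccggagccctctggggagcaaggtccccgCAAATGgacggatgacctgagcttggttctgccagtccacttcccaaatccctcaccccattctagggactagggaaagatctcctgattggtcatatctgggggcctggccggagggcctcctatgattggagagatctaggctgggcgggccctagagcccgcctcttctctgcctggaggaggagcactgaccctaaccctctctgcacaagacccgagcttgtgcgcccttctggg
The capitals in the Gfap sequence mark its 1 match to the STAT-type motif TTCNNNGAA, searched on both strands, which 8.3% of 32851 RefSeq promoter windows of this length also hold. The capitals in the Aldh1l1 sequence mark its 1 match to the E-box CANNTG, searched on both strands, which 72.3% of those windows hold. The NFI half-site TTGGC, found in 46.7% of the windows, was in neither sequence. These matches describe letters in a window and were not tested for binding. Of the 6 genes, 4 had an entry in the promoter table.

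Values are counts of read bases, that is, sequenced bases at positions where B6 and JF1 differ, and a level is the sum over both alleles on a scale where the read bases of each library sum to 1000000 (CPM). A gene with more strain differences yields more read bases, so levels are compared between groups for 1 gene and not between genes. Libraries held 5192382 to 8618253 read bases. The 2 JB6 libraries differed from each other more than the 2 BJ1 libraries at d21, with a chi-square per feature of 36.6 against 11.4 (independent counting alone gives about 1), and also at d12 (34.2 against 7.77) and in ESCs (61.8 against 9.69). At P0, pairs of libraries of the same cross gave 3.91 to 8.8. The labels do not say whether replicates came from separate cultures or animals, so p-values measure only the spread between these samples. Day 21 cultures are labelled as cortex, but the 9 cortical marker genes found summed to 18 to 31 CPM in d21 libraries and to 556 to 861 CPM in P0 libraries. Markers of meninges and mesenchyme, such as collagen genes, summed to 9248 to 14137 CPM at d21 and 299 to 476 CPM at P0.

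The main comparison set day 21 culture against P0 cortex, the latest stage of each series. Gfap and Apoe were higher in the culture, Olig1, Aqp4 and Aldh1l1 were lower, and Aldoc did not pass the test, so that 5 of the 6 genes passed edgeR's quasi-likelihood test at an adjusted p of 0.05. This count says little by itself, because 83.7% of all 11529 features tested passed, with 42.2% of those tested higher at d21 and 41.6% lower. Whether groups overlapped, in level or in allele share, is given below for single genes. The share of all features without overlap was not counted, so non-overlap says little by itself. The RNA was from bulk samples, in which fewer cells of a type and less RNA per cell cannot be told apart. In the same libraries the markers of neurons were lower at d21 (0 of 15 tested higher, 15 lower) and those of meninges and mesenchyme higher (13 of 13 tested). Of the latter list only 9 were tested between P0 and E13.5, and Col1a1 and Twist1 were not among them. Neurod2 and Neurod6 were not tested between d21 and d12. A marker near absent in either group entered the test only through the other, so its call was bound to be found. The part of these differences in the levels of the 6 genes was not tested.

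**Figure D1:**
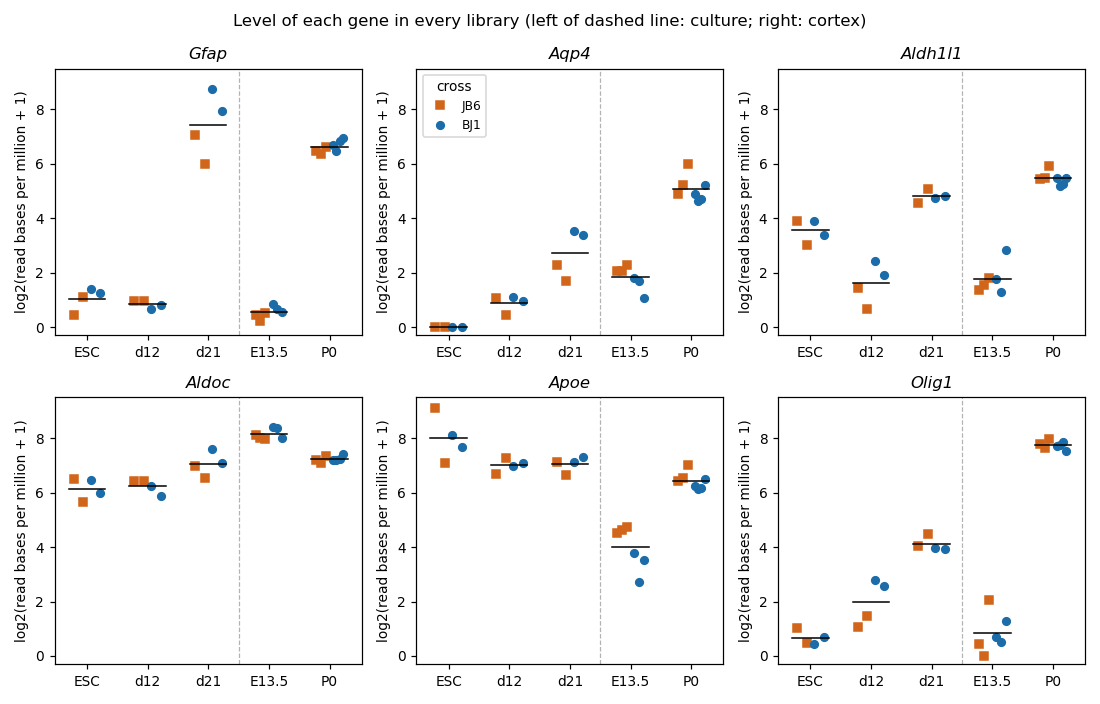
Level of each gene, as log2(CPM + 1), in each of the 25 libraries, with JB6 as squares, BJ1 as circles and the mean of each stage as a line. Aqp4, not listed for ESCs, is drawn at 0 there. Gfap is near the floor in ESCs, at d12 and at E13.5, and its 4 d21 libraries spread from 62.2 to 426 CPM, whereas Olig1 at d21 lies far below P0 in every library.

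Gfap was measured at 134 and 62.2 CPM in the 2 JB6 libraries of d21 and at 426 and 243 CPM in the 2 BJ1 libraries of d21, against 81.9 to 121 CPM (median 96.3) in the 7 P0 libraries. The BJ1 cultures and 1 JB6 culture lay above all P0 libraries, the other JB6 culture lay below all of them, and the groups thus overlapped. The log2 fold change of d21 over P0 was 1.06 ± 0.31 (SE, adjusted p = 0.0084). With JB6 libraries only it was 0.13 (adjusted p = 0.628) and with BJ1 libraries only 1.78 (adjusted p = 0.000246), so the call was made in the BJ1 line and not in the JB6 line. Without d21 BJ1 replicate 1 the fold change was 0.65 (adjusted p = 0.0125).

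Aqp4 was low in every culture. It had 3.89 and 2.25 CPM in the d21 JB6 libraries and 10.7 and 9.4 CPM in the d21 BJ1 libraries, against 23.5 to 63.5 CPM (median 28.7) at P0. No d21 library reached the lowest P0 library. The log2 fold change was -2.30 ± 0.42 (adjusted p = 2.23e-04). It passed as lower in both lines, at -3.80 with JB6 libraries only (adjusted p = 1.67e-05) and at -1.38 with BJ1 libraries only (adjusted p = 2.55e-05). The d21 values rest on 14 to 76 read bases per library.

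Aldh1l1 was at 22.7 and 33 CPM in the d21 JB6 libraries and at 26 and 27.4 CPM in the d21 BJ1 libraries, against 35.2 to 59.5 CPM (median 43) at P0. The groups did not overlap, and the log2 fold change was -0.62 ± 0.15 (adjusted p = 8.85e-04). Aldoc was at 126 and 92.8 CPM in the d21 JB6 libraries and at 193 and 136 CPM in the d21 BJ1 libraries, against 137 to 171 CPM (median 148) at P0. Its P0 range lay inside its d21 range, and the log2 fold change was -0.09 ± 0.13 (adjusted p = 0.532). That call was not the same in the 2 lines, since it passed as lower with JB6 libraries only (-0.44, adjusted p = 0.0273) and did not pass with BJ1 libraries only (0.23, adjusted p = 0.155). It also passed as lower without d21 BJ1 replicate 1 (-0.29, adjusted p = 0.0195).

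Apoe was at 137 and 100 CPM in the d21 JB6 libraries and at 138 and 159 CPM in the d21 BJ1 libraries, against 69 to 128 CPM (median 85.7) at P0. Only the highest P0 library, JB6 replicate 3 at 128 CPM, overlapped the d21 range. The log2 fold change was 0.67 ± 0.15 (adjusted p = 6.50e-04), while it was 0.22 with JB6 libraries only (adjusted p = 0.345) and 1.08 with BJ1 libraries only (adjusted p = 4.57e-07). Apoe is also made by microglia. The 10 microglial markers found summed to 100 to 361 CPM at d21 (median 115) and to 113 to 138 CPM at P0 (median 120), with none at 0. Of 8 tested, 2 were higher at d21 (Cd68 and Csf1r), 1 was lower (P2ry12) and 5 did not pass. With JB6 libraries only 2 of 7 tested were higher and 5 lower, and with BJ1 libraries only 4 of 7 were higher and 0 lower. The shares of all features in these fits are not set beside them, so these counts do not show a difference between the lines. The part of microglia in the Apoe level was not tested.

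Olig1 differed most. It was at 15.4 and 21.4 CPM in the d21 JB6 libraries and at 14.8 and 14.2 CPM in the d21 BJ1 libraries, against 183 to 251 CPM (median 213) at P0. The lowest P0 library was far above the highest culture, and the log2 fold change was -3.67 ± 0.14 (adjusted p = 3.16e-13). A larger size of change was seen in 7.99% of the features tested. Over all 22 alternative settings the fold change of Olig1 stayed between -3.81 and -3.57. In the cultures, however, read bases of Olig1 were assigned to the JF1 allele alone, as given below. Those assigned to JF1 were at 14.2 to 21.4 CPM at d21 (mean 16.4 ± 3.33, SD, n = 4) and at 93.3 to 122 CPM at P0 (mean 106 ± 9.8, SD, n = 7), so the P0 mean of that assignment was 6.46 times that of d21.

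The same genes were then followed over time, in culture from d12 to d21 and in cortex from E13.5 to P0. Gfap, Aqp4, Aldh1l1 and Olig1 were near the floor at d12 and E13.5 and higher at d21 and P0. Their means at d12 and E13.5 were under the floor of 20 read bases, except Olig1 at d12, which was at 20. They met the floor mainly through d21 and P0, where they were high, so a difference was bound to be found. The folds below describe its size, with an error that is wide where few read bases were counted. Gfap had 0.57 to 0.928 CPM at d12 and 0.177 to 0.789 CPM at E13.5, which is 1 to 8 read bases per library. Its log2 fold change was 7.73 ± 0.44 for d21 over d12 (adjusted p = 3.65e-07) and 7.69 ± 0.16 for P0 over E13.5 (adjusted p = 6.34e-17). In culture 47.8% of 11255 features passed, 25.2% of all tested being higher at d21 and 22.5% lower. In cortex 81.5% of 10877 passed, 40.1% higher at P0 and 41.4% lower.

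Aqp4 was at 0.348 to 1.14 CPM at d12 and 1.1 to 3.9 CPM at E13.5. It was higher by 2.72 ± 0.41 on the log2 scale at d21 over d12 (adjusted p = 1.29e-04) and by 3.80 ± 0.23 at P0 over E13.5 (adjusted p = 1.35e-10). Aldh1l1 was at 0.58 to 4.37 CPM at d12 and 1.47 to 6.13 CPM at E13.5, and was higher by 3.63 ± 0.39 in culture (adjusted p = 1.61e-05) and by 4.08 ± 0.25 in cortex (adjusted p = 2.58e-10). Olig1 was at 1.08 to 5.89 CPM at d12 and at 0 to 3.2 CPM at E13.5. It was higher by 2.38 ± 0.42 at d21 over d12 (adjusted p = 6.04e-04) and by 7.70 ± 0.28 at P0 over E13.5 (adjusted p = 4.14e-12).

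Aldoc and Apoe did otherwise. Aldoc was already at 58.3 to 85.2 CPM at d12 and at 248 to 339 CPM at E13.5. It was higher at d21 than at d12 by 0.78 ± 0.21 (adjusted p = 0.0099) and lower at P0 than at E13.5, with a log2 fold change of -0.86 ± 0.09 (adjusted p = 3.69e-08). Apoe was at 102 to 154 CPM at d12 and at 5.6 to 25.9 CPM at E13.5. It did not pass between d21 and d12 (log2 fold change -0.02 ± 0.16, adjusted p = 0.928), and was higher at P0 than at E13.5 by 2.58 ± 0.19 (adjusted p = 6.08e-09).

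The difference between the change in culture and the change in cortex was tested directly, as the log2 change in culture minus that in cortex, and 50.9% of 11412 features passed, 22.5% with a positive and 28.4% with a negative difference. Of the 6 genes, 3 passed. Olig1 changed less in culture by 5.49 ± 0.63 on the log2 scale (value -5.49, adjusted p = 3.04e-07), a size that rests on 41 read bases of Olig1 in 6 libraries at E13.5, and Apoe likewise (-2.60 ± 0.34, adjusted p = 1.59e-06). Aldoc changed in opposite directions, with a difference of 1.54 ± 0.21 (adjusted p = 2.82e-06). The difference for Gfap was -0.03 ± 0.46 (adjusted p = 0.962), for Aqp4 -0.88 ± 0.77 (adjusted p = 0.352) and for Aldh1l1 -0.59 ± 0.52 (adjusted p = 0.36). For Gfap it was -1.45 with JB6 libraries only and 1.61 with BJ1 libraries only, and for Aldh1l1 0.034 with JB6 libraries only. These 3 errors are wide, and the tests do not show that the changes were alike.

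**Figure D2:**
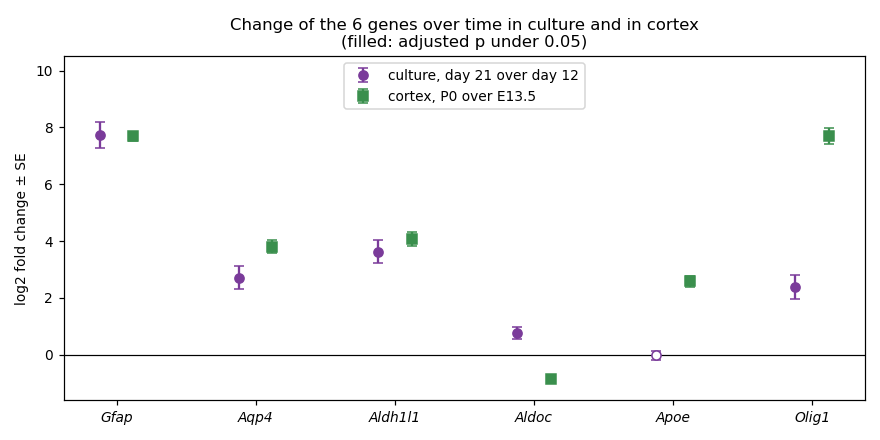
Log2 fold change ± standard error of each gene for d21 over d12 (circles) and for P0 over E13.5 (squares), filled where the adjusted p was under 0.05. Gfap lies at 7.73 and 7.69, with both lines pooled in culture, Olig1 at 2.38 and 7.70, and Aldoc at 0.78 and -0.86.

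At the earlier pair of stages, d12 culture against E13.5 cortex, 80.3% of 10930 features passed, 40% higher at d12 and 40.3% lower. Aldoc and Apoe met the floor of 20 read bases per library on average and the other 4 genes did not. Aldoc was lower at d12 (log2 fold change -1.72 ± 0.15, adjusted p = 2.64e-07) and Apoe higher (3.25 ± 0.27, adjusted p = 3.86e-07). Between d12 and ESCs 67.4% of 10484 features passed, 34.5% higher at d12 and 32.9% lower. Aldh1l1, at 7.13 to 14 CPM in ESCs, was lower at d12 by a log2 fold change of -2.64 ± 0.48 (adjusted p = 5.96e-04). Apoe was at 135 to 554 CPM in ESCs and was lower at d12 (-1.42 ± 0.42, adjusted p = 0.0145), although the groups overlapped. Without ESC JB6 replicate 1, at 554 CPM, the value was -0.81 (adjusted p = 0.0125). Aldoc did not pass (-0.18 ± 0.24, adjusted p = 0.539). Aldh1l1, Aldoc and Apoe were thus read in ESCs, where Gfap had 26 read bases in 4 libraries, Olig1 had 14 and Aqp4 was not listed.

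The cultures of the 2 lines were compared at d21. The log2 fold change of JB6 over BJ1 was -1.84 ± 0.36 for Gfap (adjusted p = 0.163) and -1.74 ± 0.39 for Aqp4 (adjusted p = 0.177). Neither passed edgeR's quasi-likelihood test, which 0.0787% of 11431 features did, 0.00875% higher and 0.07% lower in JB6, while 695 features had an unadjusted p under 0.05. In DESeq2 Gfap passed (adjusted p = 1.56e-05). Its value was -1.33 without d21 BJ1 replicate 1 and -2.20 without d21 BJ1 replicate 2, but these fits leave 1 BJ1 library, which is assumed to vary like the 2 JB6 libraries, so no call is drawn from them. Aldh1l1, Aldoc, Apoe and Olig1 had adjusted p-values of 0.687 or more. At P0, 4.36% of 10783 features differed between the crosses, 1.62% higher and 2.74% lower in JB6, and none of the 6 genes passed in edgeR. Apoe was nearest (0.48 ± 0.14, adjusted p = 0.0778), and it passed in DESeq2 (0.47, adjusted p = 0.0241).

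The strain differences also gave the share of each allele. Olig1 had 0 of 435 read bases assigned to the B6 allele at d21, and 50.7% ± 2.42 at P0 (SD, n = 7). The d21 count allows a share of up to 0.69% if read bases are taken as independent, which those of 1 read are not. All 12 culture libraries gave 0 B6 read bases for Olig1, 0 of 529 in sum, which allows up to 0.567%. This held in the JB6 cross, where B6 is the father, and in the BJ1 cross, where B6 is the mother, so the absence of read bases assigned to B6 went with the strain and not with the parent. At d21 the JF1 count was at least 145-fold that of B6 (against a floor of 3 counts over the 4 libraries). E13.5 cortex had 23 B6 read bases of 41.

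The genes next to Olig1 on chromosome 16 were read in the same way. The 8 genes on each side in RefSeq order were taken that had at least 20 read bases summed over the libraries of d21 and of P0. Of these, 10 of 16 had a B6 share of 2% or less at d21. Of all 11047 autosomal features tested at d21, 0.634% had so low a share, and at P0 0.0769% of 10402. These features averaged at least 20 read bases per library, a higher floor than that of the neighbours, so the shares are not directly comparable. Of the low neighbours, Olig2, Ifnar2, Itsn1 and Slc5a3 met the higher floor at d21, and the others, at 23 to 49 read bases in sum, did not. Synj1, Gcfc1, 4932438H23Rik and Olig2 on one side and Tmem50b, Dnajc28 and Kcne2 on the other had 0 B6 read bases at d21, while Ifnar2, Itsn1 and Slc5a3 were at 1.07% to 1.38%. Ifnar1, within the same stretch, was at 48.7%, and at P0 the 16 genes were at 32.4% to 79.2%. Around the other 5 genes none of the 16 neighbours had a share of 2% or less.

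The authors' deposited description says that the transgenic B6 strain behind the cultures, unlike the B6 mice behind the in vivo samples, still held traces of CBA sequence. Where JF1 has the same base as CBA or DBA, such sequence cannot be told from JF1. The authors therefore dropped such positions from all samples if the 12 culture libraries together had over 50 reads there, with the B6 base under 10% and the JF1 base over 40%. Olig1 had 529 read bases over the 12 culture libraries, or 26.45 for each of the 20 differences covered at most in 1 library. The counts used here come after that step. Differences kept with no B6 read base were therefore bound to be under the limit, and the value does not show why they were kept. At d21, 17 to 20 differences of Olig1 were covered, and at P0 20 to 21. Whether read bases assigned to JF1 in this stretch came from JF1 or from CBA sequence was not tested, so the level of the JF1 allele of Olig1 in culture may include both.

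**Figure D3:**
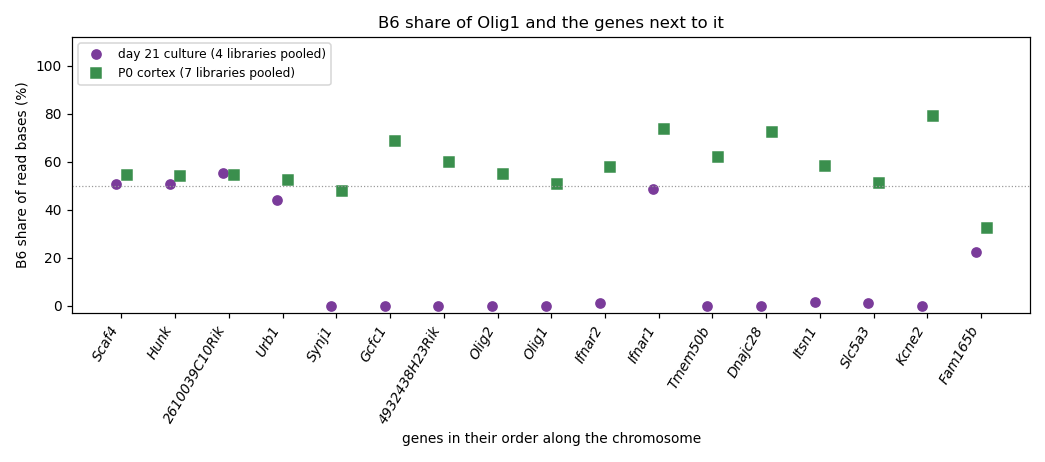
B6 share of read bases, in percent, for Olig1 and 8 genes on each side in chromosomal order, at d21 (circles, 4 libraries pooled) and P0 (squares, 7 libraries pooled). From Synj1 to Kcne2 all genes but Ifnar1 lie at 0% to 1.38% at d21, and all lie at 47.8% or more at P0.

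Gfap leaned toward JF1 in both settings. Its B6 share was 32.9% to 39.2% at d21 (mean 35.1% ± 2.96, SD, n = 4) and 41.8% to 48.6% at P0 (mean 45.5% ± 2.73, SD, n = 7), without overlap. The log2 ratio of B6 to JF1 was lower at d21 by 0.59 ± 0.08 in a test of the difference (value -0.59, adjusted p = 9.56e-07), which 19.6% of 9686 features passed, 8.34% higher and 11.3% lower at d21. This comparison was added after the data had been seen. Aldh1l1 went the other way, with a B6 share of 67.3% to 80.5% at d21 and 57.6% to 66.1% at P0 (difference 0.76 ± 0.15, adjusted p = 2.74e-04). Aldoc had 52.9% to 60.3% at d21 and 59.3% to 63.9% at P0 (difference -0.27 ± 0.08, adjusted p = 0.00748), and lost this call without d21 JB6 replicate 1 (adjusted p = 0.147) and with all counts divided by 3 (adjusted p = 0.107). Apoe, at 53.9% to 56.8% at d21 and 48.8% to 57.4% at P0, did not pass (adjusted p = 0.706).

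Aqp4 had few read bases at d21, and its B6 share was 17.4% and 0% in the JB6 libraries and 42.1% and 42.9% in the BJ1 libraries, against 28% to 37.1% at P0. The value of 0% is 0 of 14 read bases, which allows a share of up to 21.4%. The difference between d21 and P0 did not pass (adjusted p = 0.14). Within a stage, all 6 genes passed the test of B6 against JF1 at d21, where 34.4% of 11047 features did, 19.6% toward B6 and 14.8% toward JF1. With limma on allele ratios Aldoc and Apoe lost this call (adjusted p = 0.0519 and 0.0664). All but Olig1 passed at P0, where 48.2% of 10402 did, 29.2% toward B6 and 19% toward JF1. Gfap, Aqp4 and, at d21, Olig1 had more read bases assigned to JF1, and Aldh1l1, Aldoc and Apoe more assigned to B6. For Olig1 at d21 the call is one of assignment, since CBA sequence in the cultures may be counted as JF1. None of the 6 passed the test of the maternal against the paternal allele at d21, where 1.38% of features did, 1.06% toward the mother and 0.326% toward the father. None passed at P0 either, where 0.548% did, 0.231% toward the mother and 0.317% toward the father. For Olig1 at d21 that test carries no information, since read bases were assigned to 1 strain only.

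**Figure D4:**
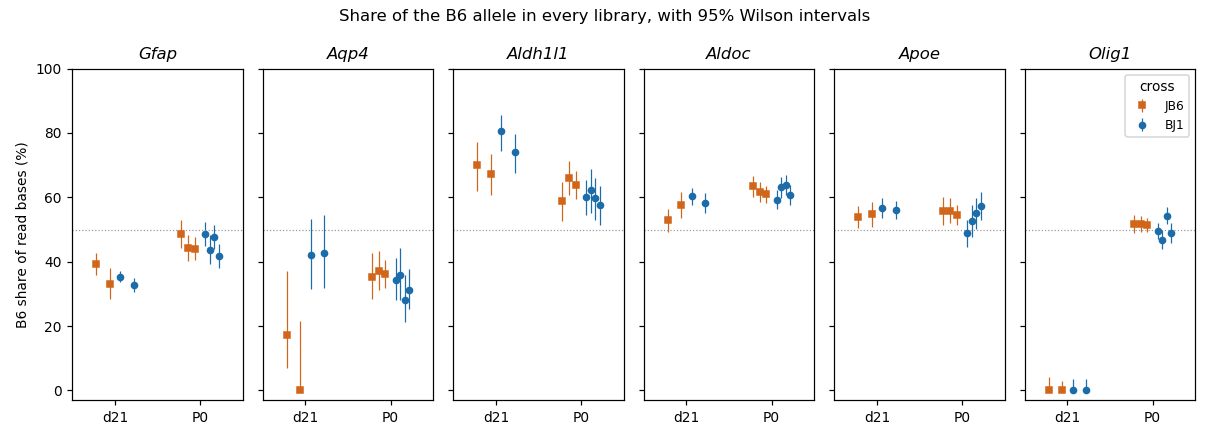
B6 share of read bases of each gene, in percent, in every d21 and P0 library with 95% Wilson intervals, for JB6 (squares) and BJ1 (circles). The d21 libraries lie below P0 for Gfap, above P0 for Aldh1l1 and at 0% for Olig1.

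The lists of related genes were read beside the members. Of 45 other astrocyte genes, 36 were tested between d21 and P0, of which 17 were higher, 13 lower and 6 did not pass. The median log2 fold change of the list was -0.009, and over all features it was -0.001. Of all features tested, 42.2% were higher and 41.6% lower. The higher genes included Aldh1a1, a retinaldehyde dehydrogenase (3.51 ± 0.18), Htra1, a secreted protease (3.06 ± 0.15), the hyaluronan receptor Cd44 (2.51 ± 0.18) and the gap junction gene Gjb6 (2.44 ± 0.24). The lower genes included Dio2, the deiodinase that activates thyroid hormone (-3.87 ± 0.26), the amino acid transporter Slc7a10 (-3.51 ± 0.3), the GABA transporter Slc6a11 (-3.48 ± 0.16) and the transcription factor Nfib (-2.78 ± 0.12). Slc6a11 was at 26.4 ± 5.33 CPM at d21 (SD, n = 4) and 302 ± 53.6 CPM at P0 (SD, n = 7), and Aldh1a1 at 84.5 ± 16.4 CPM at d21 and 7.67 ± 2.12 CPM at P0. Between d21 and d12, 24 of 34 tested astrocyte genes were higher and 0 lower, where 25.2% of all features were higher and 22.5% lower. Between P0 and E13.5 23 of 35 were higher and 9 lower, where 40.1% of all features were higher and 41.4% lower.

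Of 38 other oligodendrocyte lineage genes 22 were tested between d21 and P0, of which 11 were higher, 9 lower and 2 did not pass (median 0.39). The lower genes included the receptor Gpr17 (-6.37 ± 0.39), the transcription factors Sox10 (-4.59 ± 0.37) and Olig2 (-3.20 ± 0.19), and the myelin glycoprotein gene Omg (-5.23 ± 0.44). Sox10 was at 0.67 ± 0.533 CPM at d21 and 17.2 ± 3.78 CPM at P0, and Gpr17 at 0.28 ± 0.244 CPM at d21 and 27.1 ± 11.6 CPM at P0. Both met the floor only through P0. Olig2, at 4.13 ± 1.94 CPM at d21 and 38 ± 2.48 CPM at P0, shares with Olig1 the absence of B6 read bases in culture. The higher genes were led by Lims2 (3.34 ± 0.26), Gm98, now called Myrf, a regulator of myelin genes (3.17 ± 0.24), the apolipoprotein gene Apod (2.64 ± 0.19) and the tetraspanin gene Cd9 (2.30 ± 0.12). All 7 tested markers of Schwann cells and neural crest were higher at d21 (summed level 511 to 585 CPM at d21 and 31.5 to 52.4 CPM at P0). A marker near absent at P0 met the floor only through d21, so a higher call for it was bound to be found. Of the 11 markers of this list 2, Foxd3 among them, had 0 read bases at P0. The part of such cells in the list was not tested.

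Genes that work with each member were counted too. The counts here and below stand beside 42.2% higher and 41.6% lower over all features tested, and a count near those shares says little about its list. Among other intermediate filament genes 5 of 10 tested were higher and 2 lower. The epithelial keratin genes Krt19, Krt8 and Krt18 led, with log2 fold changes of 12.03 ± 0.3, 11.33 ± 0.25 and 9.98 ± 0.22, and Krt8 was at 1602 ± 173 CPM at d21 and 0.664 ± 0.569 CPM at P0. Krt8 thus met the floor only through d21. Krt18 and Krt19, like Krt8, were not tested between P0 and E13.5, and a higher call for a gene near absent at P0 was bound to be found. Vim, which co-assembles with Gfap and was counted among 20 radial glia genes (9 higher, 7 lower), was higher by 2.84 ± 0.09. Among genes that signal toward astrocyte fate 15 of 24 were higher and 7 lower, with the transcription factor Stat3 (2.56 ± 0.1), which is known to act on Gfap, among the higher ones and the kinase Jak2 (-2.32 ± 0.1) the lowest.

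For Aqp4, 3 of 8 tested genes of the end-foot complex and related channels were higher and 3 lower. The higher genes included the water channel Aqp1 (2.77 ± 0.31) and the cation channel Trpv4 (2.33 ± 0.25), and those lower were dystrophin, Dmd (-2.08 ± 0.37), the dystrobrevin Dtna (-2.03 ± 0.18) and Sgcb (-0.54 ± 0.13). For Aldoc, 11 of 15 glycolytic genes were higher, 3 lower, and the list's median was 2.52. Its paralogue Aldoa was higher by 3.34 ± 0.15, at 1352 ± 329 CPM at d21 and 139 ± 23.5 CPM at P0, while the difference of Aldoc itself did not pass. For Aldh1l1, 14 of 16 folate enzymes and transporters were higher and 2 lower. The 2 lower were its mitochondrial paralogue Aldh1l2 (-2.17 ± 0.16) and Mthfd2l (-1.04 ± 0.14). Aldh1l1 and Aldh1l2 were thus lower at d21 than at P0, while Mthfd1l (2.00 ± 0.11) and the thymidylate synthase gene Tyms (1.49 ± 0.17) were higher.

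For Apoe, 10 of 20 genes of lipoprotein and cholesterol handling were higher and 7 lower. The phospholipid transfer protein Pltp (3.46 ± 0.11), the lysosomal cholesterol carrier Npc2 (2.32 ± 0.09) and the esterifying enzyme Soat1 (1.86 ± 0.09) were higher. The neuronal ApoE receptors Lrp8 (-3.37 ± 0.19) and Vldlr (-1.79 ± 0.13) were lower, as was the neuronal cholesterol hydroxylase Cyp46a1 (-1.46 ± 0.19). Hedgehog signalling favours Olig1 in the ventral neural tube. Of 12 tested genes that carry or answer it, 10 were higher at d21 and 0 lower. Among the higher were Nkx6-1 at 5.26 ± 0.39 and the transducer Smo at 3.00 ± 0.12. Nkx6-1 was not tested between P0 and E13.5, and a gene near absent at P0 met the floor only through d21. The 13 genes found summed to 643 to 801 CPM at d21. They summed to 196 to 316 CPM at P0 and 1449 to 1802 CPM at E13.5. The list mixes genes that carry the signal with genes that answer it, so the counts do not measure its activity. The part of Hedgehog signalling in the Olig1 level was not tested.

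**Figure D5:**
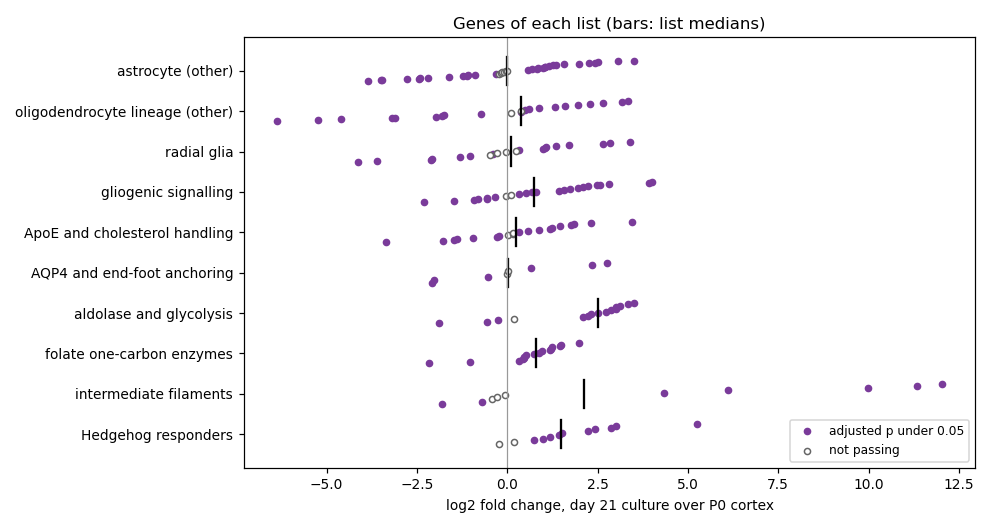
Log2 fold change of d21 over P0 for each tested gene of 10 lists, filled where the adjusted p was under 0.05, with the list median as a bar. Glycolysis lies mostly to the right with a median of 2.52, while the astrocyte and oligodendrocyte lists spread to both sides of 0.

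Across the 25 libraries, the features whose level followed each member most closely were found by Pearson correlation of log2(CPM + 1), over 11509 features. The points are libraries of only 5 stages and differ in depth, so the correlations are a description. Gfap went with Gpld1 (0.96), the prostaglandin synthase Ptgds (0.96) and Slc24a3 (0.95). Olig1 went with Hepacam (0.98), the joined feature Npcd,Nptxr (0.98) and Sema6b (0.98). Aqp4 went with Pik3r1 (0.97), Vsnl1 and Rab3b (0.96 each), Aldh1l1 with Adap1 (0.96), Kndc1 (0.95) and Adhfe1 (0.94), Aldoc with Slc30a10 (0.94), Wdpcp and Lhx9 (0.92 each), and Apoe with Fah (0.96) and Pdgfa (0.93). Hepacam, a cell adhesion gene of astrocytes, was at 7.1 CPM at d21 and 39.2 CPM at P0 on average, and Ptgds at 250.5 CPM at d21 and 213 CPM at P0.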

How the data were processed

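The authors deposited raw counts per gene and library of sense-strand read bases carrying the maternal or paternal allele, without normalization. Per the deposited description, bases at strain differences came from SAMtools mpileup 0.1.18. Per the submitters' processing notes, the tools were Novoalign, CASAVA 1.8.2, edgeR and HTSeq, on build mm9. One read over several differences adds several read bases, which are then not independent. The intervals and upper limits of allele shares take read bases as independent, so they are too narrow even for counting error. Libraries of E14 cells were not analysed here. Both alleles were summed and tested with edgeR 4.0.16 (robust quasi-likelihood, TMM, stage and cross as terms) over features listed at both stages averaging 20 or more read bases, with Benjamini-Hochberg adjustment. Alleles were tested with a column per allele and library. Alternatives included DESeq2 1.42.0, limma, another floor, counts divided by 3 and single libraries left out. Deviations of same-numbered replicates from their group means correlated by -0.373 to 0.142 over 22 pairs. Where both groups hold 2 libraries, replicates 1 and 2 give the same value by construction. The 22 values are thus not independent and do not decide whether numbers pair libraries. Numbers were not used as pairs in the main tests. Between d21 and P0 the text names, besides the 6 genes, list genes among the 4 largest passing changes in each direction. The genes, the 18 lists and the tests were chosen with earlier results of these data known. A few list genes that this rule would name are not reported here.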

Additional observations from a re-analysis of the deposited data

Results flagged for a closer look

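In 4 of 37 sets of libraries of 1 stage, 1 library stood apart from the others, where chance flags about 1 set in 20. The P0 JB6 replicate 3 was the highest P0 library for Aqp4 (63.5 CPM, the others at 23.5 to 36.6), for Aldh1l1 (59.5 CPM, the others at 35.2 to 44) and for Apoe (128 CPM, the others at 69 to 92.7). Without it the log2 fold changes of d21 over P0 kept their directions and calls. The d21 JB6 replicate 2 was the highest d21 library for Olig1 (21.4 CPM, the others at 14.2 to 15.4).

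The change over time in culture differed from that in cortex by test for Olig1 (-5.49), Apoe (-2.60) and Aldoc (1.54), as log2 values. The log2 ratio of B6 to JF1 differed between d21 and P0 by test for Gfap (-0.59), Aldh1l1 (0.76), Aldoc (-0.27) and Olig1. For Olig1 the fitted value of -9.78 depends on the prior count, because no B6 read base was found at d21.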

How the results depend on the processing

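Of 1071 recomputed values of the 6 genes, 1007 kept direction and call, 7 lost the call, 13 gained one and 44 changed sign. None of the sign changes was of a value that had passed. Of 2951 recomputed values of other named genes, 2939 kept direction and call and 12 lost the call. Of 200 recomputed counts of passing features, 185 stayed within 1.5 times the reported count. The causes of the changes below were not tested.

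Replicate numbers were not taken to pair the libraries. With a replicate block, Gfap lost its call between d21 and P0 (1.03, adjusted p = 0.0896 in edgeR), the d21 cross difference passed 181 features in place of 9, and Gfap, Aqp4 and, at P0, Apoe gained a cross difference. With crossed numbers, 7254 features passed between d12 and ESCs and 5373 between d21 and d12, against 6443 and 5032 with the numbers as labelled. The d21 cross difference passed 1 feature without TMM, 75 in DESeq2, 80 without a floor and 0 to 113 with 1 library left out, where the lone library of a cross is assumed to vary like the other cross. The P0 cross difference passed 21 to 664 with 1 library left out, against 470. With JB6 libraries only, 3499 features differed in their change over time, against 5810. With limma, 59 features passed for parent (153 reported) and 1801 for strain (3799 reported) at d21, and Aldoc and Apoe lost their strain calls there (adjusted p = 0.0519 and 0.0664). With counts divided by 3, 853 features passed the strain difference between d21 and P0, against 1901.

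The sign changes were as follows. Aldoc between d21 and P0 was 0.23 with BJ1 libraries only and -0.29 to 0.040 with 1 library left out. Apoe between d21 and d12 was 0.039 without TMM, 0.10 with all 5 stages fitted together and -0.12 to 0.16 with 1 library left out. Aldoc between d12 and ESCs was 0.066 without TMM. The Gfap difference in change over time was 0.055 in DESeq2, 0.17 without TMM, 0.13 without a floor, 0.047 with counts divided by 3, 0.15 without mitochondrial features, 1.61 with BJ1 libraries only and -0.45 to 0.31 with 1 library left out. That of Aldh1l1 was 0.034 with JB6 libraries only. With 1 library left out, the parental value of Gfap was -0.15 to 0.037 at d21 and -0.030 to 0.043 at P0 (-0.0046 in limma), and that of Aldoc at P0 -0.031 to 0.016. The d21 cross difference was then -0.37 to 0.41 for Aldh1l1 and -0.046 to 0.67 for Olig1, and the P0 one for Aldoc -0.058 to 0.073 (-0.042 without TMM). Leaving out TMM shifted the median of named values by -0.18 between d12 and E13.5, 0.23 between d12 and ESCs and 0.21 for the change over time. Few read bases of Aqp4 at d21, and of Gfap, Aqp4, Aldh1l1 and Olig1 at d12 and E13.5, limit those values.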
